A study of Mus musculus with 6 samples.

Results

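The E2F transcription factors, their DP partners and the pocket proteins of the retinoblastoma family were compared between diploid and tetraploid mouse hepatocytes. Members were all probe sets whose platform annotation gave exactly 1 gene symbol equal to 1 of 10 listed genes, namely E2f1, E2f2, E2f3, E2f6, E2f8, Tfdp1, Tfdp2, Rb1, Rbl1 and Rbl2. This rule found 11 of the 22626 probe sets that are not controls, and they measured 8 of the 10 genes. E2f2 and Tfdp2 had no probe set with their symbol alone and are not analysed here. Hepatocytes were freshly isolated from wild-type C57BL/6 mice aged 3 weeks, stained live with Hoechst and separated by DNA content on a cell sorter into diploid and tetraploid cells. RNA was taken straight after the sort, and each fraction was measured on 3 Affymetrix arrays. The fractions share strain, age and handling, so ploidy is the single factor the labels give. A sort by DNA content also places diploid cells that have copied their DNA in the tetraploid fraction. The labels call the 3 samples of a fraction biological replicates but do not say whether they are different mice. The p-values therefore rest on variation among these samples, part of which may be technical.

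E2F factors bind the promoters of genes needed for DNA synthesis, most of them as a dimer with a DP protein. E2F1, E2F2 and E2F3 activate these genes, E2F6 represses through Polycomb complexes, and E2F7 and E2F8 repress without a DP partner. RB1, p107 (encoded by Rbl1) and p130 (encoded by Rbl2) hold E2F dimers in check until cyclin-dependent kinases phosphorylate them. In the liver, activating E2F1 and repressing E2F8 are known to act in opposite ways on how many hepatocytes become polyploid.

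Levels are log2 intensities of probe sets, which do not compare between genes, and differences are tetraploid minus diploid on the log2 scale. The authors equalised the arrays, so each difference is relative to the other transcripts of an array, and fewer cells expressing a gene and less of its RNA per cell cannot be told apart. The arrays correlated with each other at between 0.992 and 0.997 over probe sets. All 7 measured genes of the hepatocyte marker list were above the cutoff for dim genes, and the list's mean level was between 14.38 and 14.59 on the diploid and between 14.33 and 14.58 on the tetraploid arrays. Of the marker lists for endothelial, Kupffer, stellate, biliary, erythroid and lymphoid cells, 5, 5, 3, 2, 4 and 2 genes were tested in that order. The others were dim or had no probe set. By limma 0 of those tested passed an adjusted p of 0.05, as did 0% of all genes. The endothelial marker Clec4g, at 0.34, was the 1 with an unadjusted p under 0.05, where 3.85% of all genes were lower and 2.32% higher. So few genes cannot show that the fractions are equally free of these cells. Of 5 tested endothelial markers, 4 had a higher and 1 a lower mean, and the list's mean level lay between 6.06 and 6.25 on the diploid and between 6.14 and 6.40 on the tetraploid arrays. The mean level of the biliary list, whose defining genes Krt7 and Epcam were dim, lay between 5.22 and 5.37 on the diploid and between 5.15 and 5.20 on the tetraploid arrays, and the part of both lists in the results was not tested.

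Of the 8 measured genes, 7 were lower on average in tetraploid cells, as were 52.2% of all genes tested, and 1, Rbl2, had a higher mean. Each gene was represented by its brightest probe set, and all 8 were above the cutoff for dim genes. By limma with Benjamini-Hochberg adjustment over the 9295 genes tested, 0 of the 8 passed an adjusted p of 0.05, as did 0% of all genes. With an unadjusted limma p below 0.05, 3 of the 8 were lower and 0 higher, where 3.85% and 2.32% of all genes were. These 3, E2f1, E2f8 and Rbl1, were also those whose tetraploid values all lay under the diploid values, a state found in 7.08% of all genes tested. The median difference was -0.17 over the 8 genes and -0.0064 over all genes tested. A total of 64 genes, or 0.689% of those tested, were lower by over 0.5, and E2f1, E2f8 and Rbl1 were among them.

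**Figure D1:**
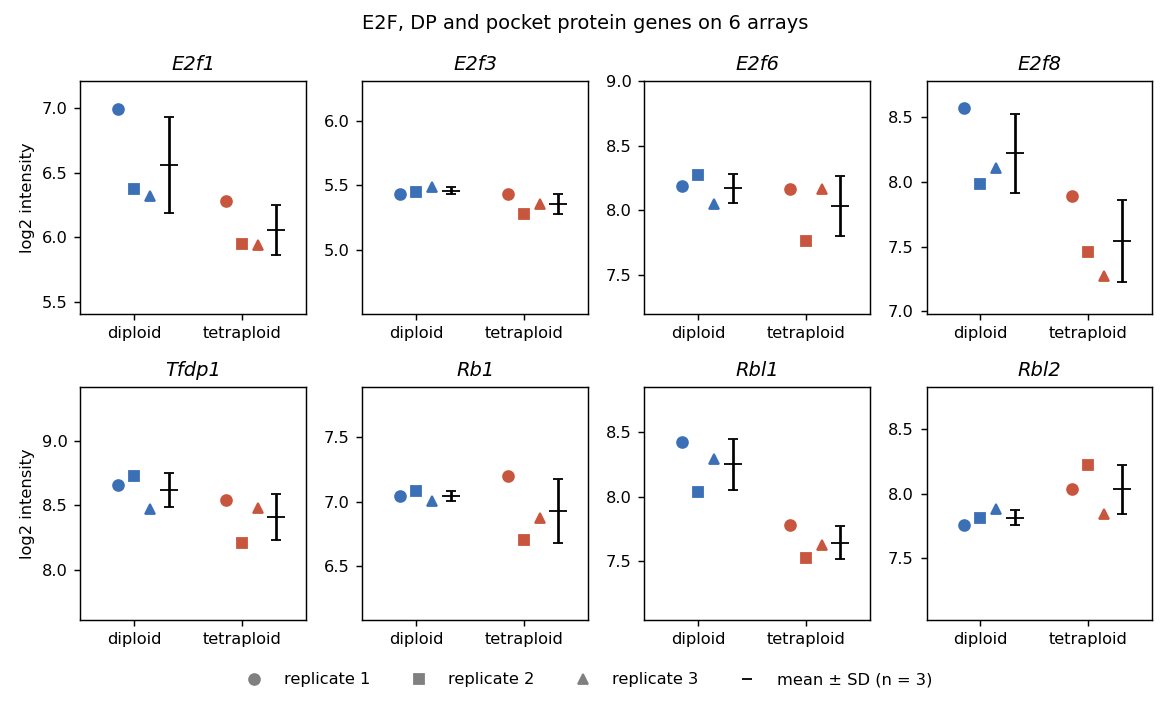
Log2 intensity of the brightest probe set of 8 E2F, DP and pocket protein genes on 3 diploid (blue) and 3 tetraploid (red) arrays, each panel spanning the same range of log2 units, with the mean ± SD beside the points. The fractions do not overlap for E2f1, E2f8 and Rbl1 and overlap for the other 5 genes.

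E2f1, the activator that drives entry into S phase, had log2 intensities of 6.99, 6.38 and 6.32 on diploid replicates 1 to 3 and of 6.28, 5.95 and 5.94 on tetraploid replicates 1 to 3. Diploid replicate 1 stood above the other two diploid arrays, and the lowest diploid array was only just above the highest tetraploid array. The means were 6.56 ± 0.37 and 6.06 ± 0.20 (SD, n = 3), a difference of -0.51 ± 0.19 (SE), so that the tetraploid level was 70.5% of the diploid level. The 95% interval ran from -0.95 to -0.063 and the limma adjusted p was 0.779. Without diploid replicate 1 the difference was -0.29, and an unadjusted p under 0.05 was missed there and without tetraploid replicate 2 or 3, each at -0.45. A second, dimmer E2f1 probe set, which matches several transcripts of the gene, differed by -0.18 ± 0.11, with overlapping fractions.

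E2f3, an activator that can stand in for E2F1 in many cells, was close to the cutoff for dim genes of 5.06. Its values were 5.43, 5.45 and 5.49 on the diploid arrays and 5.43, 5.28 and 5.35 on the tetraploid arrays. Diploid and tetraploid replicate 1 were level with each other, so the fractions overlapped. The difference was -0.10 ± 0.073 (SE), with a 95% interval from -0.27 to 0.067 and a limma adjusted p of 0.869.

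E2f8, the DP-independent repressor, had values of 8.57, 7.98 and 8.11 on diploid replicates 1 to 3 and of 7.90, 7.46 and 7.28 on tetraploid replicates 1 to 3. All 3 tetraploid arrays were below all 3 diploid arrays, with a spread of similar size in both fractions. The mean difference of -0.68 was the furthest from 0 among the 8 genes, and put the tetraploid level at 62.5% of the diploid level, with a 95% interval of the fold from 0.45 to 0.86. The limma adjusted p was 0.625. Leaving out diploid replicate 1 gave -0.50, and leaving out tetraploid replicate 1 gave -0.86.

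E2f6, the Polycomb-linked repressor, had values of 8.19, 8.28 and 8.05 on the diploid arrays and 8.16, 7.76 and 8.17 on the tetraploid arrays. Tetraploid replicate 2 alone lay below the diploid range. The difference was -0.14 ± 0.13 (SE), with a 95% interval from -0.43 to 0.16 and a limma adjusted p of 0.905, and it was -0.0059 without tetraploid replicate 2.

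Tfdp1 encodes DP1, the dimer partner through which most E2F factors bind DNA. Its values were 8.66, 8.73 and 8.47 on the diploid arrays and 8.54, 8.21 and 8.48 on the tetraploid arrays. The fractions overlapped, and tetraploid replicate 2 was again the lowest array. The difference was -0.21 ± 0.11 (SE), with a 95% interval from -0.47 to 0.055 and a limma adjusted p of 0.839, and it was -0.11 without tetraploid replicate 2.

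Among the pocket proteins, Rbl1 and Rb1 had a lower and Rbl2 a higher mean, and the 95% intervals of Rb1 and Rbl2 spanned both signs. Rbl1, whose product p107 is itself made from an E2F-controlled gene in dividing cells, had values of 8.42, 8.04 and 8.29 on the diploid arrays and 7.78, 7.52 and 7.63 on the tetraploid arrays. The gap between the lowest diploid and the highest tetraploid array was wider than for E2f1 or E2f8. The means were 8.25 ± 0.20 and 7.64 ± 0.13 (SD, n = 3), and the tetraploid level was 65.6% of the diploid level, with a 95% interval of the fold from 0.54 to 0.79. Of 9295 genes tested, Rbl1 held place 35 by p, at an unadjusted limma p of 0.0011 and an adjusted p of 0.292. A second Rbl1 probe set, with a mean log2 intensity of 5.05 just under the cutoff for dim genes, differed by -0.15 ± 0.11, and the mean of both probe sets differed by -0.38.

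Rb1, which encodes the retinoblastoma protein itself, had values of 7.05, 7.08 and 7.01 on the diploid arrays and 7.20, 6.71 and 6.88 on the tetraploid arrays. The diploid arrays were nearly equal, while tetraploid replicate 1 was the highest and tetraploid replicate 2 the lowest of all 6. The difference was -0.12 ± 0.12 (SE), with a 95% interval from -0.41 to 0.17 and a limma adjusted p of 0.909.

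Rbl2 encodes p130, the pocket protein that prevails in resting cells and carries the repressive DREAM complex. Its values were 7.76, 7.81 and 7.88 on the diploid arrays and 8.04, 8.22 and 7.84 on the tetraploid arrays. Tetraploid replicates 1 and 2 were above every diploid array and tetraploid replicate 3 was within the diploid range. The difference was 0.22 ± 0.11 (SE), with a 95% interval from -0.030 to 0.47 and a limma adjusted p of 0.820. Without tetraploid replicate 2 it was 0.12, and its other, dimmer probe set gave 0.044 ± 0.076.

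**Figure D2:**
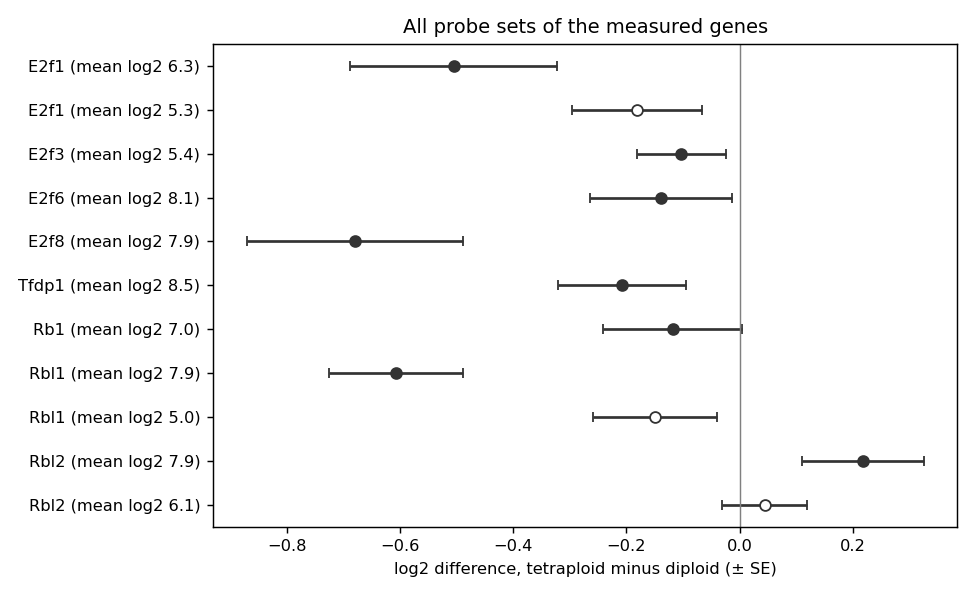
Log2 difference, tetraploid minus diploid, with the standard error of the fit over all 22626 probe sets, for the 11 probe sets of the 8 measured genes. Filled points are the brightest probe set of each gene, and open points, for E2f1, Rbl1 and Rbl2, are dimmer second probe sets, each of which differed in the same direction as the brighter but by less.

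The fit over all 22626 probe sets gave the same picture for the members taken singly. Of 11 member probe sets, 9 had a lower and 2, both of Rbl2, a higher mean in the tetraploid fraction, and 51.9% of all probe sets had a lower mean. By limma 0 passed an adjusted p of 0.05, as did 0% of all probe sets. At an unadjusted p under 0.05, 3 were lower, against 3.55% of all probe sets. The dimmer probe sets of E2f1 and Rbl1 were not among the 3.

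A different standing in the test does not show that members differ from each other, so the difference between their changes was taken within each array. The change of Rbl1 was lower than that of Rbl2 by 0.82, at -0.82 ± 0.20 (SE), with a 95% interval over arrays from -1.38 to -0.27. Rbl1 minus Rbl2 lay between 0.22 and 0.67 on the diploid arrays and between -0.70 and -0.21 on the tetraploid arrays. The exact two-sided permutation test gave p = 0.1, the smallest that 3 arrays against 3 allow, and p = 0.2 with Benjamini-Hochberg adjustment over the 4 pairs compared. With the mean of all probe sets of each gene the value was -0.51.

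The change of Rbl1 also lay below that of Rb1, by -0.49 ± 0.15 (SE), with a 95% interval from -0.90 to -0.082, an exact permutation p = 0.1 and an adjusted p = 0.2. With the mean of all probe sets it was -0.26. For E2f8 against E2f1 the value was -0.17 ± 0.10, with a 95% interval from -0.46 to 0.12 (exact permutation p = 0.3, adjusted p = 0.3). It was -0.34 with the mean of all probe sets (exact permutation p = 0.1) and -0.099 without tetraploid replicate 3. For E2f8 against E2f6 it was -0.54 ± 0.28, with a 95% interval from -1.32 to 0.24 (exact permutation p = 0.2, adjusted p = 0.267).

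The sequence before the start of Rbl1 and Rbl2 is shown because, of the 4 pairs compared, these pocket protein genes differed most in their change. Both windows hold 250 bases before the transcription start, 5′ to 3′ on the strand of the gene, from RefSeq on build GRCm38.p6. Rbl1 lies at chr2:157204535-157204784 on the minus strand and Rbl2 at chr8:91069807-91070056 on the plus strand. Capitals mark a match to the E2F motif, searched as TTTCCCGC, TTTCGCGC, TTTGCCGC and TTTGGCGC on both strands.
Rbl1: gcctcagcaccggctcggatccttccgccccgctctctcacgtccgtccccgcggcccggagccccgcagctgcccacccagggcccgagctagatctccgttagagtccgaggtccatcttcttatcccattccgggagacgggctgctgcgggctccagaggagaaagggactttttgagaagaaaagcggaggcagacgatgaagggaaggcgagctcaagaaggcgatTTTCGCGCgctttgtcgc
Rbl2: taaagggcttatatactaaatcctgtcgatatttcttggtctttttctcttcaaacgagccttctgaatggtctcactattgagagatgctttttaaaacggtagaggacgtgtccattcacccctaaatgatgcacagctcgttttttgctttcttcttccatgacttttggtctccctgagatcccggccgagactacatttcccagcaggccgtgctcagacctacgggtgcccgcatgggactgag

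The Rbl1 window held the motif TTTCGCGC from 18 to 11 bases before the start, and the Rbl2 window held none of the 4 forms. The motif was present in 611 of 32851 promoter windows of this length, or 1.86%. The windows also differed in base composition, with 63.6% G and C for Rbl1 and 46.8% for Rbl2. The windows found for E2f1, E2f3, E2f6, E2f8 and Tfdp1 overlapped the span of the gene itself and are not shown, and Rb1 was not matched. Both Tfdp1 windows, which overlap, held the same match on the opposite strand, from 43 to 36 bases before one start and from 96 to 89 before the other, and 1 of the 2 E2f3 windows held a match from 11 to 4 bases before. The windows of E2f1, E2f8 and E2f6 held none of the 4 forms. The E2f8 window did hold TTGGCGC, a form without the first T, from 111 to 105 bases before the start. Forms shortened in this way were present in 7.89% of all windows. Of the measured genes with a match in a window, Tfdp1 and E2f3 had overlapping diploid and tetraploid values and Rbl1 did not. Of those with a window but no match, E2f6 and Rbl2 had overlapping values and E2f1 and E2f8 did not. Among the measured genes, only the windows of Rbl1 and Rbl2 lay outside the gene span. The lack of a match for E2f1, E2f6 and E2f8 therefore does not show that their promoters lack the motif. A window that overlaps the gene span may hold sequence of the gene rather than its promoter. A match of letters is a description of the window and does not show that a factor binds there.

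Across arrays, the members fell into patterns that the fraction did not fully set. Diploid replicate 1 was the highest of the 6 arrays for E2f1, E2f8 and Rbl1. Tetraploid replicate 2 was the lowest for E2f3, E2f6, Tfdp1, Rb1 and Rbl1, and the highest for Rbl2. Over the 6 arrays, which share their normalization, Pearson's r was 0.96 between E2f1 and E2f8, 0.93 between E2f8 and Rbl1, and 0.87 between E2f1 and Rbl1. It was 0.95 between E2f6 and Tfdp1. Rbl2 correlated negatively with each of the other 7 genes, from -0.48 with Rb1 to -0.84 with Tfdp1.

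**Figure D3:**
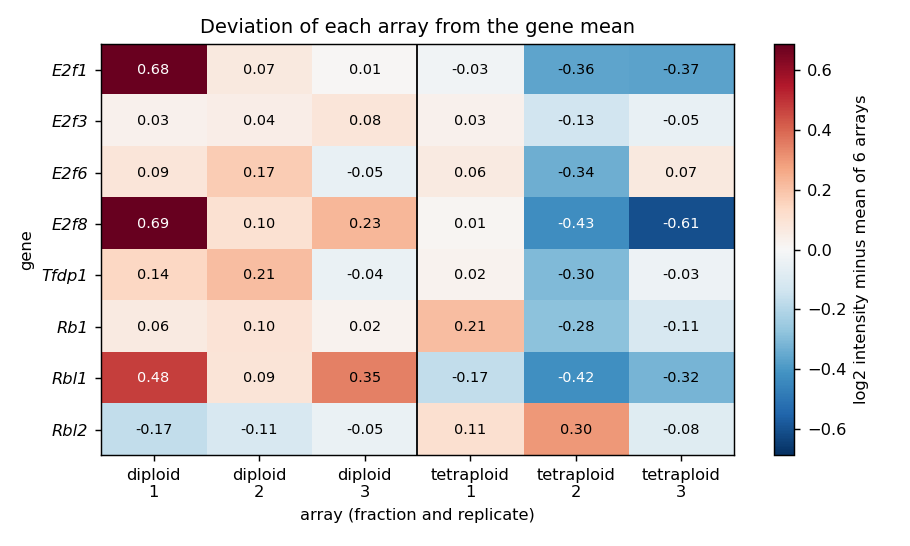
Deviation of each array from a gene's own mean over the 6 arrays, in log2 units, with diploid arrays to the left and tetraploid arrays to the right of the line. E2f1, E2f8 and Rbl1 share their highest array, diploid replicate 1, and Rbl2 is the only row whose highest array is tetraploid replicate 2.

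The genes whose pattern over the 6 arrays was most like that of Rbl1, among the 9295 tested, were Dnajc9, a histone chaperone (r = 0.993), Rpa1, a subunit of the protein that coats single-stranded DNA (r = 0.993), Anapc5, a subunit of the anaphase-promoting complex (r = 0.990), Tspan31, a tetraspanin (r = 0.990), and the exonuclease Exo1 (r = 0.990). Their differences were -0.49, -0.39, -0.16, -0.098 and -0.70 in that order. Those most like E2f8 were Tm4sf4, a membrane protein (r = 0.997), the mitochondrial ribosomal protein gene Mrpl38 (r = 0.993), the cadherin Cdh23 (r = 0.992), Brip1os (r = 0.990) and Ahcyl1 (r = 0.988). Their differences were smaller than that of E2f8, between -0.25 for Brip1os and -0.086 for Ahcyl1, and other probe sets turned the sign for Mrpl38 and Ahcyl1. With 6 arrays and 9295 genes, high values of r arise easily.

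Of the E2F genes outside the list, E2f4, which acts mainly as a repressor with pocket proteins, differed by -0.14 ± 0.11 (SE), with values of 6.80, 6.46 and 6.85 on the diploid and 6.59, 6.60 and 6.49 on the tetraploid arrays. E2f5, its close relative, differed by 0.087 ± 0.14, and by -0.084 without diploid replicate 1, its lowest array. The fractions overlapped in both, with limma adjusted p of 0.893 and 0.952. E2f7, the partner of E2F8 in repression, had no probe set with its symbol alone.

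Upstream of the pocket proteins, cyclins and kinases phosphorylate them in G1. Of 13 tested genes of this group, 9 had a lower mean, where 52.2% of all genes did, and 4 a higher mean, with a median of -0.11. By limma 0 passed an adjusted p of 0.05, while 2 were lower and 2 higher at an unadjusted p under 0.05, where 3.85% and 2.32% of all genes were. The E-type cyclins, which are themselves E2F targets, were the lower 2. Ccne1 had values of 7.10, 6.89 and 7.12 on the diploid arrays and 6.60, 6.60 and 6.54 on the tetraploid arrays. Ccne2 had values of 7.58, 8.0 and 7.71 against 7.14, 7.04 and 7.05. Neither gene's fractions overlapped, and the differences were -0.46 ± 0.084 and -0.69 ± 0.11 (SE), with limma adjusted p of 0.261 and 0.211.

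Cyclin C (Ccnc), at 0.30 ± 0.12, and Cdk7, the kinase that activates other cyclin-dependent kinases, at 0.19 ± 0.083, were the pair with a higher mean at an unadjusted p under 0.05. Both lost that mark with a second quantile normalization and with array weights, and kept it with the stricter dim filter and the other variance model. Cdk7 also lost it with probe sets that match several transcripts left out, at 0.15. The D-type cyclin Ccnd1, which starts pocket protein phosphorylation, differed by -0.053 ± 0.14, and its kinase partner Cdk4 by -0.15 ± 0.079, or by -0.0073 with probe sets that match several transcripts left out. Of 5 tested inhibitors of these kinases, 2 had a lower mean, where 52.2% of all genes did, and 3 a higher mean, with a median of 0.077. Cdkn1b, which encodes p27, differed by 0.29 ± 0.11, with a limma adjusted p of 0.779, and by 0.18 with the mean of all its probe sets. Its tetraploid values all lay above the diploid values, as for 485 of the 9295 genes tested. Cdkn1c differed by 0.31 ± 0.14, Cdkn2c by -0.097 ± 0.10 and Cdkn2d by -0.12 ± 0.15. Cdkn1a, which encodes p21, had a difference of 0.077 ± 0.41 that was small against its spread within each fraction.

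Downstream, genes known as E2F targets were lower on average almost throughout. Of 33 tested targets, 30 were lower and 0 higher at an unadjusted limma p under 0.05, against the 3.85% and 2.32% of all genes given above, and for 29 all tetraploid values lay under the diploid values, as for 7.08% of all genes. By limma 0 passed an adjusted p of 0.05, with a smallest adjusted p of 0.211. The median difference was -0.69. The targets with the smallest p were Uhrf1, which guides maintenance DNA methylation, at -1.55 ± 0.18, the chromatin remodeller Hells at -1.27 ± 0.17, the replication fork factor Cdc45 at -0.64 ± 0.091 and the helicase subunit Mcm5 at -1.41 ± 0.22 (SE). Replication genes were known to be lower in these samples when the list was written, so the count is no independent evidence of the direction.

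The targets that did not reach an unadjusted p under 0.05, named after their values were seen, were Cdk1 at -0.24 ± 0.22, Mcm10 at -0.039 ± 0.15 and the cyclin Ccna2 at 0.023 ± 0.23. The proliferation marker Mki67, present in all cycling cells, differed by -0.12 ± 0.17, and its part in these results was not tested. The mean deviation of the 33 targets from their own gene means was 0.54, 0.22 and 0.33 on diploid replicates 1 to 3 and -0.19, -0.40 and -0.49 on tetraploid replicates 1 to 3. Ranked by this mean, the 6 arrays stood in the order in which they stood for E2f8. Of 36 promoter windows found for 29 of these targets, 9 held the E2F motif, or 25%, beside the 1.86% of all windows. The genes were listed because they are known E2F targets, so this share is no independent evidence. The windows were not matched for base composition or screened for overlap with the gene span.

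**Figure D4:**
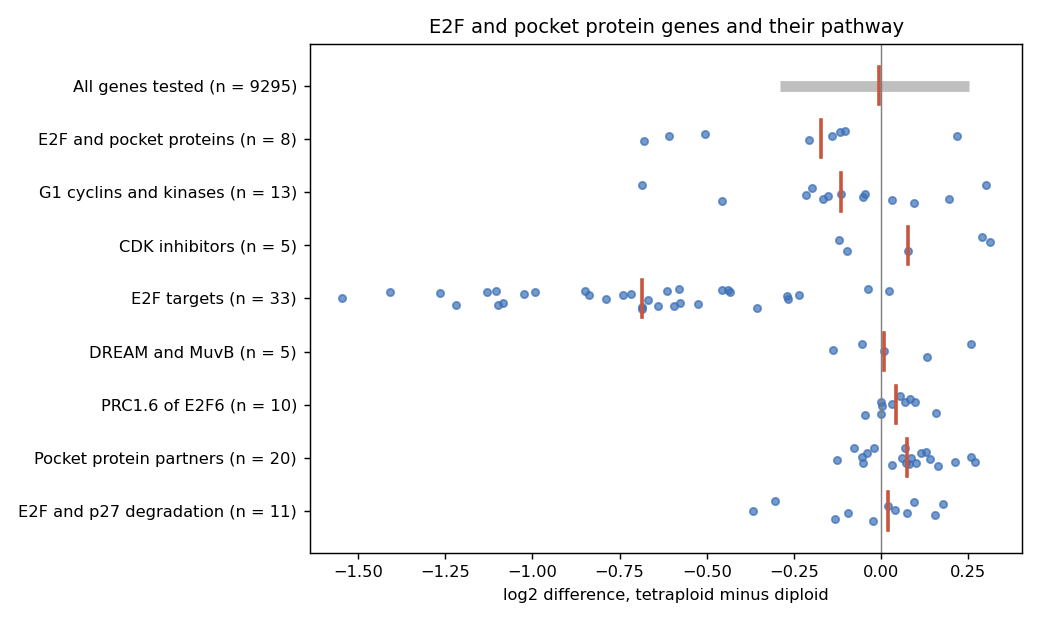
Log2 difference, tetraploid minus diploid, for each tested gene (blue points) of the E2F and pocket protein genes and of 7 lists around them, with the median of each as a red line. The grey bar spans the central 95% of the 9295 single genes tested and is no measure of the spread of list medians. The E2F targets have a median of -0.69.

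Complexes that work with E2F and pocket proteins had medians near that of all genes, of which 52.2% had a lower mean. Of 5 tested genes of the DREAM and MuvB complexes, 2 had a lower and 3 a higher mean, with a median of 0.0080. Lin37 differed by 0.26 ± 0.13, Foxm1, the mitotic transcription factor, by -0.14 ± 0.089, and the kinase Dyrk1a by 0.13 ± 0.14, or by 0.010 without diploid replicate 1. Rbbp4 differed by -0.054 ± 0.11, and by 0.19 with the mean of all its probe sets. Of 10 tested genes of the Polycomb complex that holds E2F6, 3 had a lower and 7 a higher mean, with a median of 0.042. Their smallest p-values belonged to Cbx1 at 0.16 ± 0.094, which was -0.029 with probe sets that match several transcripts left out, Ring1 at 0.096 ± 0.070, Rnf2 at 0.082 ± 0.087 and Cbx3 at 0.068 ± 0.077. In both groups 0 genes reached an unadjusted limma p under 0.05.

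Of 20 tested partners of the pocket proteins, 6 had a lower and 14 a higher mean, with a median of 0.075. Over all genes tested, 52.2% had a lower mean. Rbbp9 was the single gene with an unadjusted limma p under 0.05, at 0.26 ± 0.11, where 2.32% of all genes were higher at that mark. Rbbp9 lost it with a second quantile normalization, at 0.23, with arrays centred on the median, at 0.25, and with array weights, at 0.20. It kept the mark with the other dim filters and the other choices of probe set. Ppp1cb, a catalytic subunit of the phosphatase that strips phosphate from the retinoblastoma protein, differed by 0.27 ± 0.13, and the histone demethylase Kdm5b by 0.13 ± 0.075. Rbbp6 differed by 0.21 ± 0.12. It was at 0.44 with probe sets that match several transcripts left out, at 0.24 with the mean of all its probe sets and at 0.31 without tetraploid replicate 3, each with an unadjusted limma p under 0.05. Of 11 tested genes for the degradation of E2F1 and p27, 5 had a lower and 6 a higher mean, with a median of 0.018. Skp2, the ligase subunit that targets p27, differed by -0.37 ± 0.19, and by -0.16 without tetraploid replicate 2. It was at -0.42 with probe sets that match several transcripts left out and at -0.34 with the mean of all its probe sets. Both of these had an unadjusted limma p under 0.05. Its cofactor Cks1b differed by -0.30 ± 0.16, and by -0.16 without tetraploid replicate 3 and -0.46 without tetraploid replicate 1. Ddb1 differed by -0.13 ± 0.070 and Skp1 by 0.094 ± 0.066. In both groups 0 genes passed limma's adjusted p of 0.05.

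**Figure D5:**
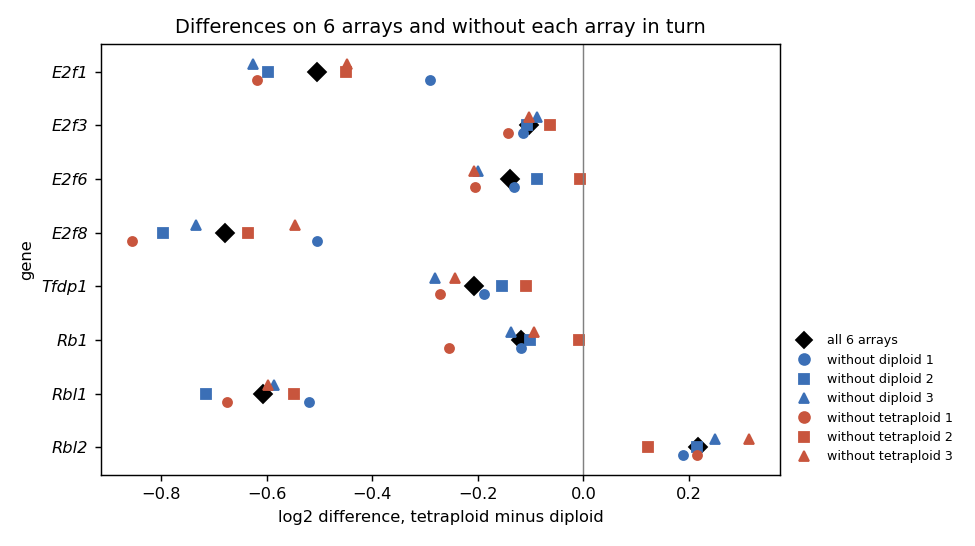
Log2 difference, tetraploid minus diploid, for 8 genes on all 6 arrays (black diamonds) and with each array left out in turn (blue, a diploid array left out; red, a tetraploid array left out). E2f8 and Rbl1 stay below -0.50 in each case, E2f1 moves to -0.29 without diploid replicate 1, and E2f6 and Rb1 move to -0.0059 and -0.0081 without tetraploid replicate 2.

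Leaving out each array in turn kept the sign of the difference for all 8 genes. E2f8 ranged from -0.86 to -0.50 and Rbl1 from -0.71 to -0.52, and both kept an unadjusted limma p under 0.05 each time. E2f1 ranged from -0.63 to -0.29 and lost that mark without diploid replicate 1, tetraploid replicate 2 or tetraploid replicate 3. Rb1 gained it without tetraploid replicate 1, at -0.25, and Rbl2 without tetraploid replicate 3, at 0.31. Over these and the other alternatives, the lowest limma adjusted p of any of the 8 genes was 0.152.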

How the data were processed

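Total RNA of 3 diploid and 3 tetraploid samples was labelled as biotinylated cRNA and hybridised to Affymetrix arrays, per the labels' protocols. The deposited values are linear-scale intensities, 1 for each probe set on each array, made by the authors with RMA per the submitters' processing notes, with no version given in the sources used here. After a log2 conversion, the 64 controls among 22690 probe sets were dropped. Each of 12393 genes was represented by its brightest probe set with a single symbol, and the 25% of genes with the lowest mean, under 5.06, were left out, which left 9295. Fractions were compared in R 4.3.3 by the two-sided test of limma 3.58.1 (functions lmFit and eBayes, ploidy as the factor, Benjamini-Hochberg over all genes, threshold 0.05), and again over all 22626 probe sets. Intervals of 95% for a gene come from that fit. The planned pair of Tfdp1 and Tfdp2 could not be compared. Precision is limited by having 3 arrays a fraction, and the middle gene had a standard error of 0.095. The fit was tested on simulated data.

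The members, gene lists and pairs were chosen with earlier results of these data known. Named are all members, the 4 genes of each list with the smallest p, the 5 genes most correlated with each of the 2 members of smallest p, and some reference genes, with genes outside the rule marked. Alternatives covered the dim filter, the choice of probe set, normalization, variance model, array weights, a replicate block and leaving out each array.

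Replicate numbers are shared by the fractions, but the correlation of deviations between arrays of the same number was 0.51, -0.18 and -0.19. The numbers were therefore not taken to pair the arrays in the main fit, although values from so few arrays cannot exclude pairing.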

Additional observations from a re-analysis of the deposited data

How the results depend on the processing

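With limma, 0 genes, 0 probe sets and 0 list members passed an adjusted p of 0.05 on 6 arrays, with 574 genes at an unadjusted p under 0.05. Leaving out each array gave 0 to 1 genes, 0 to 1 probe sets and 0 to 1 list members, the 1 being Hells without tetraploid replicate 1 (adjusted p = 0.00978), and 378 (without diploid replicate 1) to 639 genes at an unadjusted p under 0.05. The stricter filter on dim genes, which tests fewer genes and leaves out E2f1 and E2f3, gave 369. With the replicate number as a block, 9 genes, 10 probe sets and 6 list members passed, all 6 of them E2F targets, and 0 of the 8 E2F and pocket protein genes. In the fit over all probe sets with this block, the brightest probe sets of E2f8, Rbl1 and E2f1 had unadjusted limma p of 0.00025, 0.00027 and 0.0017. Their adjusted p were 0.168, 0.170 and 0.405, and the other member probe sets had unadjusted p above 0.05. Only 2 of 6 arrays correlated best with the array of their own number, but so few arrays cannot show whether the numbers pair them. The cause of the changes of sign that follow was not tested. With the mean of all probe sets the differences that changed sign were Rbbp4 at 0.19, Kdm5b at -0.0065 and Ahcyl1 at 0.10. With probe sets that match several transcripts left out they were Cbx1 at -0.029, Mrpl38 at 0.046 and Ahcyl1 at 0.18, and with array weights Cdkn1a at -0.0070. Over arrays left out in turn, E2f5 ran from -0.084 to 0.20, Ccnd1 from -0.17 to 0.070, Cdkn1a from -0.30 to 0.48, Cdkn2d from -0.23 to 0.044 and Mki67 from -0.28 to 0.035. The 8 measured members kept their sign under every alternative in which they were tested.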
